A study of Rattus norvegicus with 18 samples.

Results

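Solute carriers are membrane proteins that move small molecules and ions across the plasma membrane and the membranes of organelles. The genes described here are the solute carrier genes outside the SLC25 family, the family of mitochondrial carriers, that were expressed in untreated H9C2 cells. They are the protein coding genes with an Slc symbol outside SLC25 that reached at least 1 FPKM (fragments scaled by gene length and library size) in all 3 untreated libraries. Slc7a11, Slc7a5, Slc3a2, Slc2a1 and Slc40a1 were set aside by name. The rule took 119 of the 313 protein coding carrier genes outside SLC25 that the table lists. A further 190 did not reach the level, and 4 of the 5 genes set aside reached it. The members were thus chosen by their measured FPKM in untreated cells, and every comparison that contains untreated cells, the interactions of PE with the pulses included, is given as a description. Just inside the level were Slc26a10 with 1.17, 1.29 and 1.16 FPKM, Slc38a9 with 1.20, 1.26 and 1.26, and Slc38a4 with 1.51, 1.74 and 1.48. Just outside were Slc39a8, Slc45a1 and Slc35d2, whose lowest untreated libraries stood at 0.9998, 0.874 and 0.873 FPKM. Among the 119 are 4 genes whose symbols do not name carriers, Slc9a3r1, Slc9a3r2, Slc4a1ap and Slc7a6os, and these are kept as a class of their own.

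The cells were of 1 line, H9C2, an established line derived from embryonic rat heart, and RNA was sequenced in 18 libraries. NC cells were left untreated, ES10 cells were given 10 electric pulses and ES50 cells 50 pulses, each at 1500 V/cm for 100 µs. The P group spent 48 h in 50 µmol/L of a compound labelled PE, and P_ES10 and P_ES50 cells had the same PE treatment followed by 10 or 50 of these pulses. Each group has 3 libraries, and the labels do not say what PE stands for or how long after the pulses RNA was taken. The question of the series is what such pulses do to heart muscle cells and their mitochondria.

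Carriers work as uniporters, as exchangers that swap one solute for another, or as cotransporters that use the sodium gradient built by the sodium pump. In heart and muscle cells they set intracellular sodium, calcium, pH and cell volume, and they supply amino acids, lactate, glucose and fatty acids. Several amino acid carriers are known targets of ATF4, a transcription factor of the response to amino acid shortage, and the zinc exporter gene Slc30a1 is a known target of the metal sensor MTF1.

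The libraries held 14004929 to 17247201 reads on genes. Genes of the mitochondrial genome took 12.9 ± 1.21% of these in NC, 9.44 ± 0.319% in ES10, 92.1 ± 0.728% in ES50, 5.48 ± 0.104% in P, 6.46 ± 0.377% in P_ES10 and 48.6 ± 1.66% in P_ES50 (mean ± SD, n = 3). ES50 libraries therefore had 1230554 to 1466851 reads on nuclear genes, against 12059244 to 13933169 in NC. The deposited FPKM set the median gene equal between libraries, so each change below is relative to the median gene. On a scale of total reads the median gene itself moved by -2.4 (log2) in ES50 versus ES10, by -0.77 in P_ES50 versus P and by 0.11 in P versus NC. In bulk RNA, fewer cells of a kind and less RNA per cell cannot be told apart. The labels number the replicates and say no more of their origin. The p-values then measure only the spread between these samples, which may be technical. The label myocardium was checked against markers. Of 7 cardiomyocyte markers 3 reached 1 FPKM in NC, Tnnt2 at 12.1, Pln at 1.64 and Tnni3 at 2.18, while Myh6 stood at 0.0115 and Nppa at 0.123. Of 6 myoblast markers 2 did, Myod1 at 32.0 and Des at 9.1, while Myog stood at 0.951 and Myf5 at 0.00715. Smooth muscle and fibroblast markers were higher. All 4 smooth muscle markers did, Acta2 at 1400, Tagln at 752, Cnn1 at 79.1 and Myh11 at 1.57. Of 5 fibroblast markers 3 did, Col1a1 at 1450, Vim at 1060 and Col3a1 at 464, while Dcn stood at 0.1 and Pdgfra at 0.0304. Cdh5 and Ptprc, defining genes of endothelial cells and leukocytes, had no reads in any library. Other markers of these cells had some reads. In NC the endothelial Kdr and Tek stood at 0.0829 and 0.139 FPKM. The leukocyte Cd68, Cd3e and Itgam stood at 0.934, 0.62 and 0.0661, and Cd68 reached a mean of 1.48 in P_ES10.

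All 119 genes passed the filter of the test, which asked for 1 FPKM in at least 3 libraries, and all 119 would also pass on libraries outside NC. In NC 43 of them had a mean of at least 10 FPKM and 49 a mean under 5. The most expressed per gene length was Slc38a2, a sodium-coupled carrier of neutral amino acids, at 199 ± 4.55 FPKM. It was followed by the sodium-phosphate cotransporter Slc20a1 at 83.9 ± 2.39, the endolysosomal heme carrier Slc48a1 at 52.7 ± 0.960 and the zinc carrier of the endoplasmic reticulum Slc39a7 at 52.3 ± 2.60. The next 6 were the second phosphate cotransporter Slc20a2, the little studied Slc35e4, the potassium-chloride cotransporter Slc12a4, the neutral amino acid exchanger Slc1a4, the zinc carrier Slc39a1 and the glutamine exchanger Slc1a5, at 48.4 to 33.0 FPKM. These means describe the selection and carry no test. The highest members of the other classes in NC were the lactate and pyruvate carrier Slc16a1 at 21.3 ± 0.601 FPKM, the sugar-phosphate family member Slc37a3 at 15.5 ± 0.257, the fatty acid carrier Slc27a1 at 8.90 ± 0.150, the vesicular monoamine carrier Slc18a2 at 2.44 ± 0.118 and the scaffold Slc9a3r1 at 28.3 ± 2.15.

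The 119 genes together took 0.918% to 1.05% of the reads on nuclear genes in 5 of the 6 groups and a much smaller share in ES50. The share was 0.990% to 1.00% in the 3 NC libraries, 1.04% to 1.05% in ES10, 0.994% to 1.02% in P, 0.995% to 1.01% in P_ES10 and 0.918% to 0.928% in P_ES50. In ES50 it was 0.377% to 0.388%, below every other library. All P_ES50 libraries had a lower share, and all ES10 libraries a higher share, than every library of NC, P and P_ES10. This share is taken within nuclear reads, so the number of mitochondrial reads does not enter it. By class, in reads for every 1000000 nuclear reads, carriers of amino acids held 3570 ± 36.5 in NC, 4150 ± 32.4 in ES10 and 701 ± 12.5 in ES50 (mean ± SD, n = 3). The phosphate class, which holds Slc20a1, Slc20a2 and Slc17a5, held 849 ± 9.62, 887 ± 10.9 and 94.3 ± 5.07 in the same groups, and ion carriers 1090 ± 34.1, 1050 ± 2.51 and 265 ± 4.11. Carriers of vitamins, choline and heme held 657 ± 14.4, 679 ± 2.58 and 493 ± 26.4. By mean FPKM, 95 of the 119 genes were lowest in ES50 and 64 were highest in P. Lowest and highest groups were not counted for other genes, so these counts describe the members alone. Whether they differ from those of other genes was not tested.

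**Figure D1:**
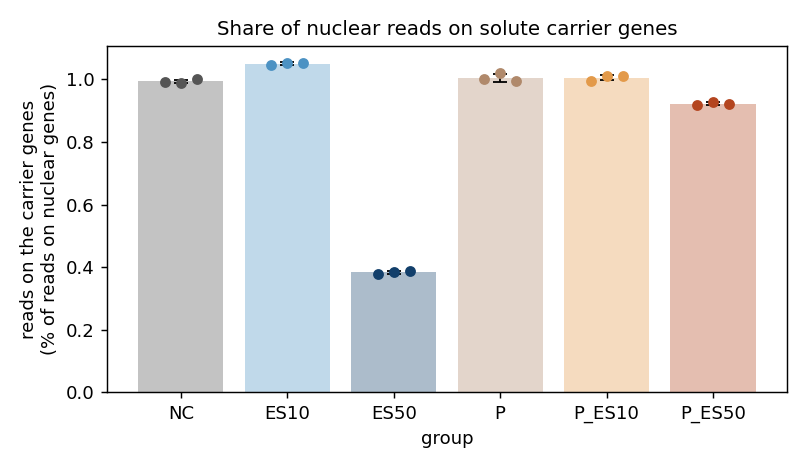
Reads on the 119 solute carrier genes as a percentage of the reads on nuclear genes, by group. Bars are means of 3 libraries, error bars SD and points libraries. The ES50 libraries sit between 0.377% and 0.388%, and the libraries of the other groups between 0.918% and 1.05%.

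ES50 was compared with ES10 first, since neither group was used to choose the genes. Carrier genes were mostly lower after 50 pulses: 90 of 119 fell, 10 rose and 19 did not pass the test. Among all 11917 genes tested, 41.3% fell and 33% rose. The test was limma on log2(FPKM + 1) over all 18 libraries, with an adjusted p under 0.05 called, and all changes below are log2 fold changes on that scale ± standard error. That scale understates changes of low genes. The median change of the members was -0.87, against -0.13 over all genes tested. In 93 of the 119 genes the 3 ES50 libraries did not overlap with the 3 ES10 libraries, which held for 70.2% of all genes tested. Among the 9856 protein coding genes that met the same level in NC, 42.4% fell, 35.7% rose and 73.4% had no overlap. Of the 32 tested mitochondrial carriers of SLC25, 12 fell and 14 rose with a median of 0.11, a difference from the members that was not tested. Scaled to total reads, all 119 members fell. Scaled to nuclear reads, an alternative chosen after seeing the data, the counts were again 90 lower and 10 higher, and quantile normalization gave 73 and 13.

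The largest fall was that of Slc8b1, the sodium-calcium exchanger of the inner mitochondrial membrane (ENSRNOG00000001383, chromosome 12, 41566981 to 41590244, build Rnor 6.0). Its level was 21.8, 22.8 and 24.1 FPKM in the ES10 libraries and 0.507, 0.570 and 0.799 FPKM in the ES50 libraries. The ES50 libraries all lay far below, with 12 reads in all behind their values. The change was -3.88 ± 0.07 (adjusted p = 3.00e-16). The bicarbonate cotransporter Slc4a7 went from 9.31 ± 0.286 to 0.171 ± 0.0691 FPKM, with 5 reads left over the 3 ES50 libraries. In the class of ion carriers 16 of 19 fell and 1 rose, with a median of -1.28. The potassium-chloride cotransporter Slc12a4, which lets cells lose volume, had ES10 libraries at 42.4, 44.2 and 42.9 FPKM and ES50 libraries at 5.32, 5.10 and 5.71, and fell by 2.79 ± 0.05. Its counterpart Slc12a2, which loads cells with chloride, fell by 1.49 ± 0.09 and the plasma membrane sodium-calcium exchanger Slc8a1 by 1.68 ± 0.15. All 5 members of SLC12 fell. The 1 that rose was Slc24a5, a potassium-dependent sodium-calcium exchanger of pigment organelles, at 0.57 ± 0.10. Its gene shares 99 bases with Myef2, whose mean was 20.2 FPKM in ES10 and 19.2 FPKM in ES50. Whether the libraries keep the strand is not stated.

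Both sodium-phosphate cotransporters fell, and so did Slc17a5, which the family number puts in the same class, with a class median of -3.08. Slc20a1 (ENSRNOG00000018567, chromosome 3, 121725859 to 121739173) stood at 71.4, 72.3 and 72.9 FPKM in ES10 and 6.12, 7.37 and 7.57 in ES50, a change of -3.19 ± 0.06. Slc20a2 (ENSRNOG00000019490, chromosome 16, 74317899 to 74408030) stood at 70.7, 72.3 and 73.0 in ES10 and 7.98, 6.73 and 8.22 in ES50, a change of -3.08 ± 0.05. For both genes every ES50 library lay far below the lowest ES10 library. Slc17a5, which exports sialic acid from lysosomes, fell by 1.25 ± 0.15 from a level of 3.14 ± 0.0803 FPKM.

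Of 20 amino acid carriers 17 fell and 0 rose, with a median of -1.36. Slc38a2 had 255, 262 and 265 FPKM in ES10 and 38.0, 36.4 and 38.5 in ES50, so the groups stood far apart, and it fell by 2.76 ± 0.03. Slc1a4 had 53.2, 53.9 and 54.2 FPKM in the ES10 libraries and 6.98, 7.17 and 6.93 FPKM in the ES50 libraries. Slc7a1, a cationic amino acid carrier, had 44.9, 44.1 and 43.6 FPKM with 10 pulses and 5.19, 3.75 and 4.13 FPKM with 50 pulses. Neither gene had overlapping groups, and the changes were -2.77 ± 0.03 and -3.09 ± 0.07. The taurine carrier Slc6a6 fell by 3.07 ± 0.15, the glutamine exchanger Slc1a5 by 2.73 ± 0.13, the creatine carrier Slc6a8 by 1.54 ± 0.04 and the glycine carrier Slc6a9 by 1.43 ± 0.07. The 3 that did not pass the test were low: Slc3a1, Slc38a4 and Slc38a9, with at most 2.50 FPKM in any ES10 library. The call of Slc1a3, a glutamate carrier at 2.34 ± 0.449 FPKM in ES10, was lost without the filter on low values (adjusted p = 0.0736), after quantile normalization (0.496) and with only these groups in the fit (0.202). It was also lost without ES10 replicate 1 (0.0751) or 2 (0.124) or ES50 replicate 2 (0.059) or 3 (0.248).

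Among carriers of zinc, iron, manganese, copper and magnesium 18 of 23 fell and 2 rose, with a median of -0.79. The Golgi zinc importer Slc30a7 fell by 2.48 ± 0.20, the copper carrier Slc31a1 by 1.64 ± 0.14, the zinc exporter Slc30a1 by 1.57 ± 0.06 and the iron carrier Slc11a2 by 0.64 ± 0.09. The 2 that rose were the zinc carrier Slc39a3 at 0.39 ± 0.09 and the magnesium carrier Slc41a1 at 0.31 ± 0.11. For Slc41a1 1 ES50 library stood at 8.53 FPKM and the other two at 5.80 and 5.95, and its adjusted p was 0.14 with only these groups in the fit, 0.0912 without ES50 replicate 1 and 0.0599 without ES10 replicate 1. Carriers of vitamins, choline and heme fell in 9 of 10 cases, led by the vitamin C carrier Slc23a2 at -3.11 ± 0.13. All 3 lipid carriers fell, among them the fatty acid carrier Slc27a1 at -2.30 ± 0.30, whose ES50 libraries were uneven at 3.82, 0.477 and 0.534 FPKM. The monocarboxylate and organic ion class held 6 falls among 8, with Slc16a1 at -2.27 ± 0.16. The sugar class had 7 falls among 8 but a median of only -0.44, and the insulin-regulated glucose carrier Slc2a4 fell by 0.78 ± 0.15 from 2.36 ± 0.215 FPKM. The single gene of another family, Slc18a2, fell by 0.81 ± 0.16.

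**Figure D2:**
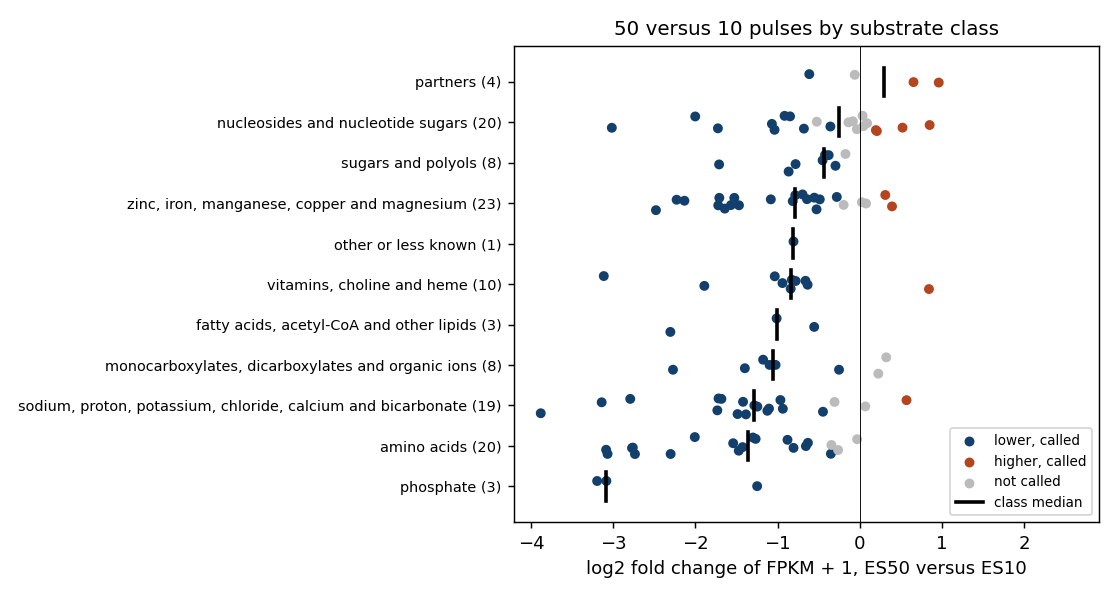
Log2 fold change of FPKM + 1 in ES50 versus ES10 for each of the 119 genes, by substrate class (number of genes in brackets), with class medians as black lines. Blue points fell, red points rose and grey points did not pass the test. The phosphate class has the lowest median at -3.08, and nucleosides and nucleotide sugars lie nearer 0 with a median of -0.25.

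The mixed class was that of nucleosides and nucleotide sugars, most of whose members work in the endoplasmic reticulum and Golgi. Of its 20 genes 9 fell, 4 rose and 7 did not pass the test. Slc35a4 (ENSRNOG00000002908, chromosome 18, 29506128 to 29509296) had 18.7, 19.5 and 17.8 FPKM in ES10 and 34.3, 32.8 and 36.2 in ES50. Every ES50 library was above every ES10 library, and the change was 0.85 ± 0.06. Slc35a3, which carries UDP-N-acetylglucosamine into the Golgi, rose by 0.52 ± 0.10, Slc29a3 by 0.21 ± 0.09 and Slc35b1 by 0.19 ± 0.06. The call of Slc29a3 was lost without any ES10 library (adjusted p of 0.0715 to 0.0942) or without ES50 replicate 1 (0.141). In the same class Slc35e4 went from 63.2, 67.8 and 64.2 FPKM to 7.86, 6.46 and 7.23 FPKM and fell by 3.02 ± 0.06.

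One of the most expressed members in NC was among those that rose. Slc48a1, which moves heme out of endolysosomes (ENSRNOG00000053196, chromosome 7, 139271698 to 139279499), had 61.8, 62.8 and 64.2 FPKM in ES10 and 102, 120 and 118 in ES50. The groups did not overlap, the rise was 0.84 ± 0.05, and it was the member with the most reads in ES50. In the class kept apart, the scaffolds Slc9a3r1 and Slc9a3r2, which anchor carriers to the cytoskeleton, rose by 0.65 ± 0.07 and 0.96 ± 0.13. Slc7a6os of that class fell by 0.62 ± 0.12. Each of the 10 rises is relative to the median gene: scaled to total reads, all 10 turned negative, with Slc48a1 at -2.58, Slc35a4 at -2.40, Slc9a3r1 at -2.69 and Slc9a3r2 at -1.49.

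The 19 members that did not pass the test were Slc3a1, Slc38a4 and Slc38a9 of the amino acid class, Slc26a6 and Slc4a3 of the ion class, Slc30a3, Slc30a9 and Slc31a2 of the metal class, Slc10a3 and Slc10a7 of the organic ion class, Slc50a1 of the sugar class, the partner Slc4a1ap, and Slc29a2, Slc35a1, Slc35b2, Slc35b4, Slc35c1, Slc35c2 and Slc35e3. A further 7 members, all at 10 FPKM or less in ES10, had under 10 reads over the 3 ES50 libraries: Slc4a7, Slc23a3, Slc26a11, Slc9a5, Slc16a11, Slc43a2 and Slc26a10.

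Depth moved with this comparison. Nuclear reads were 1335973 ± 120188 in ES50 and 13909861 ± 771398 in ES10 (exact two-sided permutation p = 0.1, the smallest 3 against 3 can give). Between 30 and 38 members had under 10 reads in an ES50 library, against 0 in any other library. Over the same groups the summed level of 4 smooth muscle markers, of which 4 reached 1 FPKM in NC, went from 2320 to 5520 FPKM, and that of 5 fibroblast markers, of which 3 reached 1 FPKM, from 3250 to 1480. Cardiomyocyte markers summed to 16.3 and 53.3 FPKM. Within these sums single markers differed. Tnnt2 went from 12.4 to 40.2 FPKM and Pln from 1.92 to 12.3, but Tnni3 from 1.79 to 0.512. Myh6, Nppa, Ryr2 and Actn2 had means of at most 0.252 in either group. Of the fibroblast markers Col1a1 went from 1550 to 247 and Col3a1 from 499 to 53.7, while Vim stood at 1200 and 1180. The part of these in the result was not tested. Longer genes tended to lower values: across the 119 genes, log2 gene length and the change had a Pearson r of -0.301 and a Spearman rho of -0.296, against -0.066 and -0.248 across all 11917, a description over genes that share the same libraries.

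The comparison of ES50 with NC is given beside it as a description and shares its ES50 libraries. There 91 members fell and 7 rose, against 40.1% and 31.9% of all genes tested, with a median of -0.87. Slc8b1 changed by -3.78 ± 0.07, Slc20a1 by -3.41 ± 0.06 and Slc23a2 by -3.02 ± 0.13. The 7 that rose were Slc48a1 at 1.09 ± 0.05, Slc9a3r1 at 0.89 ± 0.07, Slc35a4 at 0.80 ± 0.06, Slc9a3r2, Slc24a5, Slc35b1 and Slc39a3. On total reads all 119 were lower. The calls of Slc35b1 (adjusted p = 0.0641) and Slc24a5 (0.106) were lost with limma voom on recovered reads. For Slc39a3 the NC and ES50 libraries overlapped, at 17.5, 17.6 and 19.6 and 17.7, 22.7 and 23.5 FPKM, and its call was lost without ES50 replicate 2 or 3 or NC replicate 1 or 2 (adjusted p of 0.129 to 0.2).

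In cells that had PE before the pulses, most of the carrier genes that passed the test after 50 pulses fell. Against P, 38 members fell in P_ES50, 9 rose and 72 did not pass the test, where 14.2% of all genes tested fell and 14.1% rose. The median of the members was -0.22 and that of all genes tested -0.01. Mitochondrial genes took 48.6% of the reads in P_ES50 and 5.48% in P, and their part in the counts was not tested. Scaled to total reads 117 fell and 2 rose, and scaled to nuclear reads, chosen after seeing the data, 39 fell and 8 rose. Of 32 SLC25 genes 0 fell and 5 rose. That difference was not tested.

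Slc39a13, a zinc carrier of intracellular membranes known for a connective tissue disorder (ENSRNOG00000011981, chromosome 3, 79884524 to 79892429), fell most. Its libraries had 39.9, 38.0 and 36.8 FPKM in P and 12.2, 12.2 and 10.6 in P_ES50, with no overlap, a change of -1.63 ± 0.06 (adjusted p = 3.88e-11). The lipocalin-2 receptor Slc22a17 fell by 1.14 ± 0.25 and Slc38a6, a little studied member of an amino acid carrier family, by 1.03 ± 0.17. Ion carriers fell in 12 of 19 cases and none rose. Among them the sodium-proton exchanger Slc9a5 fell by 0.94 ± 0.11 from 3.96 ± 0.214 FPKM, the anion exchanger Slc4a3 by 0.76 ± 0.10, Slc12a4 by 0.68 ± 0.05 and Slc8b1 by 0.64 ± 0.07. Slc8b1 kept 19.5, 19.2 and 19.5 FPKM in the P_ES50 libraries. The thiamine carrier Slc19a2 fell by 0.67 ± 0.14 and Slc35f5 by 0.66 ± 0.12.

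The 9 that rose were led by Slc48a1, Slc1a4 and Slc7a1. Slc48a1 had 41.6, 39.1 and 39 FPKM in P and 95.1, 97.1 and 103 in P_ES50, so it was clearly separated, and rose by 1.28 ± 0.05. Slc1a4 had 29.3, 28.8 and 29.2 FPKM in P and 60.2, 60.4 and 59.8 in P_ES50, again with no overlap, and rose by 1.02 ± 0.03. Slc7a1 rose by 0.50 ± 0.07, from 23.8, 22.9 and 23.2 to 32.9, 33.6 and 34.0 FPKM. The zinc carrier Slc30a4 rose by 0.40 ± 0.07, Slc6a9 by 0.29 ± 0.07, Slc20a1 by 0.26 ± 0.06, Slc20a2 by 0.24 ± 0.05, Slc30a1 by 0.21 ± 0.06 and Slc35a4 by 0.18 ± 0.06. Scaled to total reads, Slc48a1 and Slc1a4 stayed higher, and the other seven turned negative, among them Slc7a1 at -0.37 and Slc20a1 at -0.63. After quantile normalization the value of Slc20a1 was 0.13 (adjusted p = 0.123). Leaving out 1 library ended 12 of the 47 calls. The call of Slc35a4 was lost without P replicate 2 (adjusted p = 0.195) or any of the P_ES50 libraries (0.0571 to 0.121), and that of Slc30a1 without P replicate 3 (0.0622) or P_ES50 replicate 1 (0.0632).

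Slc1a4 is a known ATF4 target, and its promoter is one of a pair among the members that hold the full ATF4 composite site TTGCATCA. Windows from 250 bases before to 50 after the gene start were taken from RefSeq, build GRCr8, for the 96 of 119 members that matched. The site, searched on both strands, was in 2 of 96 (2.08%), Slc1a4 and Slc38a1, and in 138 of 18999 windows of all protein coding genes (0.726%). With 1 letter free (TTGCNTCA, which includes the first) it was in 4.17% and 3.36%. The 250 bases before the starts of these genes are shown because Slc1a4 and Slc38a1, with the same letters, had different values, and capitals mark the site.
Slc1a4, chr14:98761563-98761812, minus strand: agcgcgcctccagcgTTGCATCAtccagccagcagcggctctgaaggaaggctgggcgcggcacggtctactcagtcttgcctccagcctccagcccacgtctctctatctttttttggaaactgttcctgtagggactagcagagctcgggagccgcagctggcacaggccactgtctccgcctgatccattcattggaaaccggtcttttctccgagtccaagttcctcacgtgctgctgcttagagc
Slc38a1, chr7:129681402-129681651, minus strand, site on the other strand as TGATGCAA: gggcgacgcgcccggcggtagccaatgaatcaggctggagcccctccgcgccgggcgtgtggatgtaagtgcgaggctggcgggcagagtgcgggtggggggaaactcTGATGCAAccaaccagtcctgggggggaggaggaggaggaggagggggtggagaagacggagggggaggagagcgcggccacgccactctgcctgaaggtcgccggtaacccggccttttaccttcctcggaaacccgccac
The site starts 235 bases before the gene start in Slc1a4 and 142 bases before it in Slc38a1. Slc38a1, a sodium-coupled carrier of glutamine, had 2.75, 2.62 and 2.64 FPKM in P and 2.81, 1.90 and 1.93 in P_ES50, and its change did not pass the test (-0.20 ± 0.17). A match describes these letters and is not a measured binding site.

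Against P_ES10, 19 members fell in P_ES50 and 6 rose, where 12.9% and 10.5% of all genes tested did. This comparison shares its P_ES50 libraries with the one above. Slc6a9 rose by 0.87 ± 0.07, Slc48a1 by 0.83 ± 0.05, Slc20a1 by 0.69 ± 0.06, Slc9a3r2 by 0.61 ± 0.13, Slc1a4 by 0.44 ± 0.03 and Slc35e1 by 0.40 ± 0.09. Slc39a13 fell by 1.24 ± 0.06, Slc35e4 by 0.91 ± 0.06, Slc35f5 by 0.88 ± 0.12, and Slc38a2 and Slc6a6 by 0.69 each. On total reads 115 fell and 1 rose, with Slc1a4 at -0.35, Slc20a1 at -0.11, Slc48a1 at 0.03 (adjusted p = 0.744) and Slc9a3r2 at 0.02 (adjusted p = 0.878). With only these groups in the fit 31 fell and 8 rose, and with limma voom 35 fell and 9 rose.

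The 50-pulse effects without and with PE rest on separate libraries and could be set beside each other. Across the 119 genes the 2 changes had a Pearson r of 0.025 and a Spearman rho of 0.009, against 0.37 and 0.325 across all 11917 genes, as a description. Of the 91 genes lower without PE, 30 (33%) were also lower with PE, which is 78.9% of the 38 lower with PE, and 7 were higher with PE. Over all genes tested, 24.3% of those lower without PE were lower with it, which is 68.8% of those lower with PE. Of the 4781 genes lower without PE over all genes tested, 445 were higher with it. The 7 with opposite calls were Slc20a1, Slc20a2, Slc7a1, Slc1a4, Slc6a9, Slc30a1 and Slc30a4, that is both sodium-phosphate cotransporters, 3 amino acid carriers and 2 zinc carriers. On total reads 6 of these 7 were lower in both, and Slc1a4 alone stayed opposite, at 0.14 in P_ES50 versus P. In the other direction Slc35b1, Slc24a5 and Slc39a3 were higher without and lower with PE, and on total reads all 3 were lower in both. They are 3 of the 7 members higher without PE, beside 238 of 3802 over all genes tested. Slc48a1 and Slc35a4 were higher in both, the second with the call that single libraries ended. On total reads Slc48a1 was lower without PE and Slc35a4 lower in both.

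**Figure D3:**
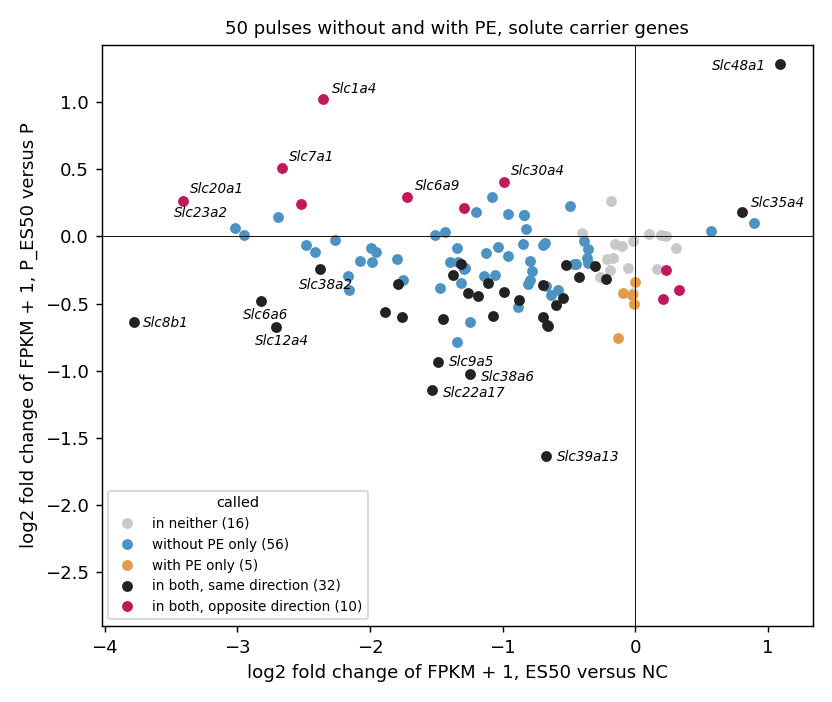
Change after 50 pulses without PE (ES50 versus NC, horizontal) and with PE (P_ES50 versus P, vertical) for the 119 genes, as log2 fold change of FPKM + 1. Colours give the calls of the 2 tests. The horizontal spread reaches -3.78 at Slc8b1 while the vertical one reaches -1.63 at Slc39a13, and Slc48a1 lies high on both axes.

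The difference between these effects was computed as an interaction of PE and 50 pulses. It contains the NC values that chose the genes and is a description. By the threshold of the test it was positive for 65 members and negative for 12, with a median of 0.61, where 31.1% and 27.9% of all genes tested were called with a median of 0.05. A positive value means a smaller fall or a larger rise with PE. The largest were Slc20a1 at 3.67 ± 0.08, Slc1a4 at 3.38 ± 0.05, Slc7a1 at 3.17 ± 0.10, Slc8b1 at 3.14 ± 0.10 and Slc23a2 at 3.08 ± 0.19. The most negative were Slc39a13 at -0.96 ± 0.09, Slc9a3r1 at -0.79 ± 0.10, Slc24a5 at -0.73 ± 0.15, Slc39a3 at -0.68 ± 0.13 and Slc35a4 at -0.63 ± 0.08. By class it was positive for 13 of 20 amino acid carriers, 14 of 19 ion carriers, 12 of 23 metal carriers, 3 of 3 genes of the phosphate class and 7 of 20 genes of the nucleoside and nucleotide sugar class. The median gene moved by 1.65 in this contrast on a scale of total reads, where 117 members were positive and 0 negative.

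**Figure D4:**
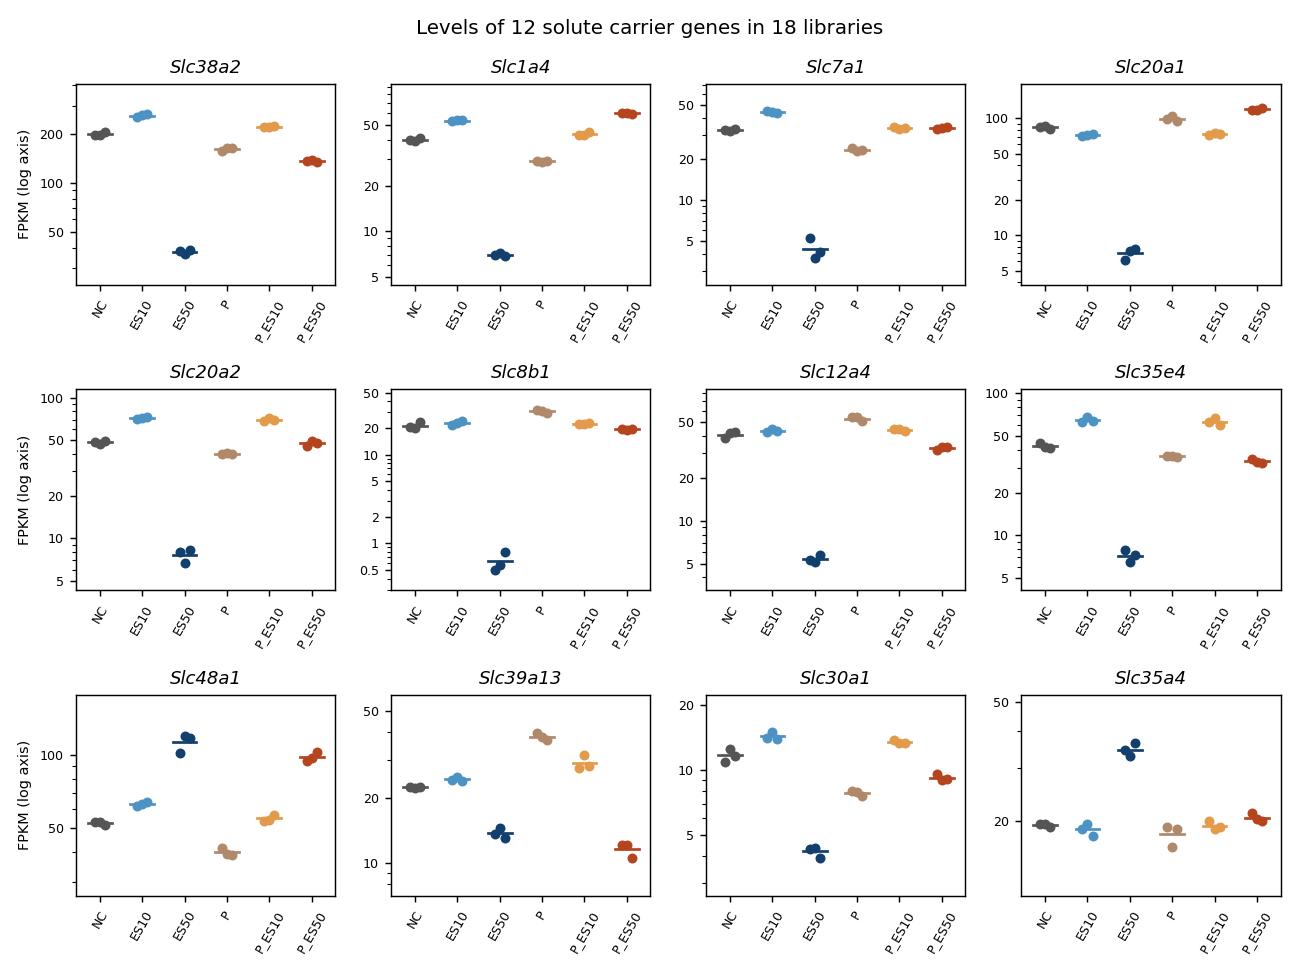
FPKM of 12 carrier genes in each of the 18 libraries, on a log axis, with group means as lines. In 10 of the 12 panels ES50 is the lowest or second lowest group. Slc48a1 and Slc35a4 are highest there, with Slc48a1 at 102 to 120 FPKM.

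After 10 pulses few carrier genes passed the test, given here as a description since NC chose the genes. Against NC, 10 rose, 2 fell and 107 did not pass the test, where 6.36% of all genes tested rose and 2.21% fell. The median of the members was 0.01. The spread was estimated over all groups. Leaving the 3 ES50 libraries out of the fit gave 21 higher and 9 lower, and limma voom on recovered reads 21 and 10. The split between directions moved with the scaling, to 5 and 5 on nuclear reads, chosen after seeing the data, 11 and 8 on total reads and 10 and 4 after quantile normalization.

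Slc35e4 rose most, with 44.5, 41.7 and 41.3 FPKM in NC and 63.2, 67.8 and 64.2 in ES10. Slc20a2 had 48.7, 47.1 and 49.3 FPKM in NC and 70.7, 72.3 and 73.0 in ES10. In both genes every ES10 library was above every NC library, and the changes were 0.60 ± 0.06 (adjusted p = 1.19e-05) and 0.56 ± 0.05. Slc20a1, the paralog of Slc20a2, fell by 0.21 ± 0.06, and the call was lost with a pseudocount of 0.1 (adjusted p = 0.0512). The amino acid carriers Slc7a1, Slc1a4 and Slc38a2 rose by 0.42 ± 0.07, 0.41 ± 0.03 and 0.39 ± 0.03, the creatine carrier Slc6a8 by 0.23 ± 0.04, and the glycine carrier Slc6a9 fell by 0.29 ± 0.07. Slc7a6os, Slc30a1, Slc48a1 and Slc9a3r1 rose by 0.43 ± 0.12, 0.28 ± 0.06, 0.25 ± 0.05 and 0.24 ± 0.07. On nuclear reads Slc7a6os, Slc30a1 and Slc48a1 had adjusted p-values of 0.0977, 0.0763 and 0.0833. Leaving out 1 library ended 5 of the 12 calls. Those of Slc20a1 (adjusted p of 0.0572 to 0.119) and Slc7a6os (0.0736 to 0.145) were lost whichever NC or ES10 library was left out, and that of Slc9a3r1 (0.0726 to 0.213) with any but NC replicate 3. The call of Slc6a9 was lost without NC replicate 1 or 3 or ES10 replicate 1 or 2 (0.0705 to 0.0899), and that of Slc30a1 without NC replicate 1 (0.0531) or ES10 replicate 2 (0.0528). No ion, sugar, lipid or organic ion carrier passed the test.

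With PE, 13 members rose and 23 fell after 10 pulses compared with P, where 13.2% and 9.66% of all genes tested were called and the median of the members was -0.11. Without the ES50 libraries in the fit it was 20 and 38, and on total reads 12 and 51. The rises were led by Slc35e4 at 0.79 ± 0.06, Slc20a2 at 0.79 ± 0.05, Slc7a6os at 0.75 ± 0.12, Slc30a1 at 0.72 ± 0.06, Slc31a1 at 0.59 ± 0.14, Slc1a4 at 0.58 ± 0.03 and Slc7a1 at 0.50 ± 0.07. Slc38a2 had 158, 165 and 164 FPKM in P and 222, 220 and 224 in P_ES10, without overlap. Slc38a6 fell by 0.91 ± 0.17, Slc4a3 by 0.66 ± 0.10, the organic ion family member Slc22a15 by 0.63 ± 0.10, Slc6a9 by 0.58 ± 0.07, Slc9a3r2 by 0.57 ± 0.13, Slc39a5 by 0.50 ± 0.15, Slc9a5 by 0.48 ± 0.11 and the zinc and iron carrier Slc39a14 by 0.46 ± 0.09. Leaving out 1 library ended 10 of the 36 calls, among them that of Slc39a5 whichever P or P_ES10 library was left out (adjusted p of 0.054 to 0.0816). Ion carriers fell in 7 of 19 cases and rose in 1, Slc12a2 at 0.41 ± 0.09.

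The responses to 10 pulses without and with PE share no library. Every member called without PE was called in the same direction with PE, and most falls with PE were called there alone. All 10 genes higher without PE were also higher with PE (100% of 10 and 76.9% of 13), and both genes lower without PE, Slc20a1 and Slc6a9, were lower with PE (8.7% of 23). Over all genes tested, 87.7% of those higher and 83.3% of those lower without PE were called the same way with PE. They made up 42.3% of all genes higher and 19.0% of all genes lower with PE. Across the 119 genes the changes had a Pearson r of 0.789 and a Spearman rho of 0.766, against 0.588 and 0.649 across all 11917 genes, as a description over genes of the same libraries.

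**Figure D5:**
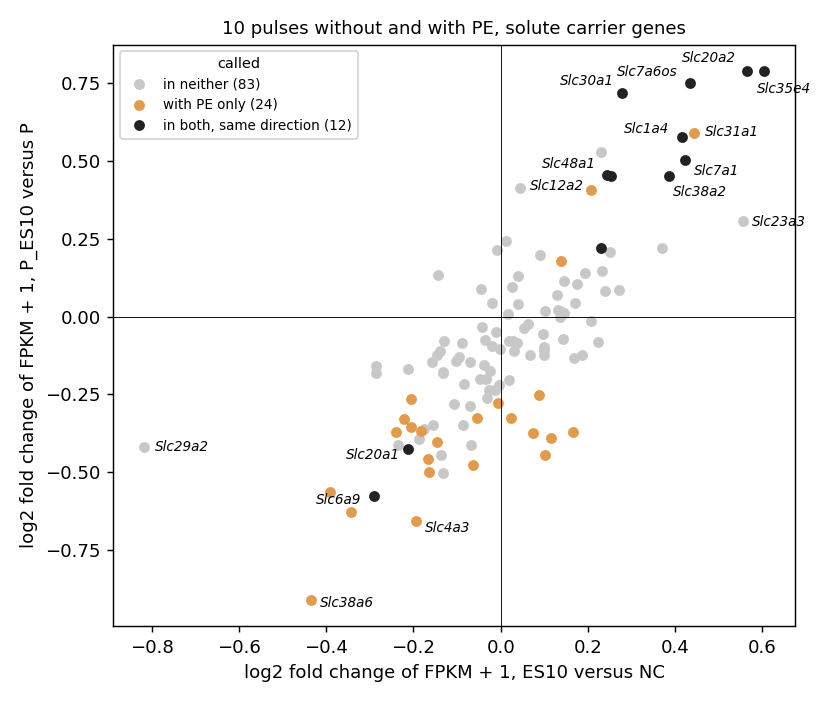
Change after 10 pulses without PE (ES10 versus NC, horizontal) and with PE (P_ES10 versus P, vertical) for the 119 genes, as log2 fold change of FPKM + 1. The 12 black points were called in both tests, 10 higher and 2 lower. No gene was called in opposite directions.

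The interaction of PE and 10 pulses, which also contains NC and is a description, was positive for 1 member and negative for 3, where 0.562% and 0.344% of all genes tested were called. On total reads it was 1 and 7. The median of the members was -0.12. It was positive for Slc30a1, whose rise went from 0.28 ± 0.06 without PE to 0.72 ± 0.06 with PE, a difference of 0.44 ± 0.08. It was negative for Slc8b1 at -0.55 ± 0.10, Slc39a13 at -0.51 ± 0.09 and Slc12a4 at -0.34 ± 0.07. With NC replicate 2, ES10 replicate 1, ES10 replicate 3 or P_ES10 replicate 1 left out, 2 members passed, and without the ES50 libraries 14 did. The call of Slc30a1 was lost without ES10 replicate 1 or 3, NC replicate 2, P replicate 3 or P_ES10 replicate 1 (adjusted p of 0.0549 to 0.0666), and that of Slc12a4 without any 1 of 10 of the 12 libraries (0.0565 to 0.0913). The call of Slc8b1 was lost with a pseudocount of 0.1 (adjusted p = 0.141).

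Slc30a1 exports zinc from the cell. Its promoter is shown for TGCNCNC, searched on both strands, a loose form of the metal response core that MTF1 is known to bind. Its libraries had 10.9, 12.6 and 11.7 FPKM in NC, 14.2, 15 and 14.0 in ES10, 7.99, 7.95 and 7.56 in P and 13.8, 13.4 and 13.4 in P_ES10. The P libraries lay below all others of these groups. Capitals mark the core, which stands on the other strand at 91 and 18 bases before the gene start.
Slc30a1, chr13:106021769-106022018, plus strand, build GRCr8: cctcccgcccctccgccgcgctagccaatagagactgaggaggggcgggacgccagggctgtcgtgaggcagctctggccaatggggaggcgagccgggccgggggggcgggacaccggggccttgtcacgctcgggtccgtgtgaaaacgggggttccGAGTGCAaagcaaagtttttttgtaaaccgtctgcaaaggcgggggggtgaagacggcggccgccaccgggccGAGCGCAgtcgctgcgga
This loose form is short: it was in 58.3% of 96 member windows and in 53.1% of 18999 windows. The antioxidant element TGACNNNGC was in 24.0% and 12.7%, and the CLEAR box TCACGTGA of lysosomal genes in 3.12% and 1.10%. Mtf1 itself was low, with a mean of 0.126 FPKM in NC.

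PE alone was compared with NC as a description, since NC chose the genes. In P 19 members were higher and 9 lower, where 4.72% and 4.81% of all genes tested were called, with medians of 0.14 and 0.00. Leaving the ES50 libraries out of the fit gave 45 and 17, total reads 56 and 8, and nuclear reads, chosen after seeing the data, 19 and 9. Ion carriers made up 7 of the rises with 0 lower. The sugar carrier Slc50a1 was higher by 0.75 ± 0.11, with 10.0, 8.21 and 9.47 FPKM in NC and 16.2, 15.3 and 17.2 in P. Slc39a13 was higher by 0.74 ± 0.06, with 22.5, 22.3 and 22.5 and 39.9, 38.0 and 36.8 FPKM. Neither gene had overlapping libraries. Slc9a5 followed at 0.64 ± 0.11, Slc38a6 at 0.63 ± 0.17, the magnesium family member Slc41a3 at 0.54 ± 0.11, Slc8b1 at 0.51 ± 0.07, the glucose-6-phosphate carrier Slc37a4 at 0.48 ± 0.09 and Slc24a5 at 0.48 ± 0.10. The call of Slc38a6 was lost with a pseudocount of 0.1 (adjusted p = 0.0868), without the filter (0.0565) and without any 1 of the P or NC libraries but NC replicate 2 (0.0674 to 0.112). Leaving out 1 library ended 11 of the 28 calls, among them that of Slc35e4 without any but NC replicate 3 (0.0577 to 0.118) and that of Slc9a3r1 without NC replicate 3 (0.0568).

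The 9 lower genes were Slc30a1 at -0.53 ± 0.06, Slc7a1 at -0.47 ± 0.07, Slc1a4 at -0.45 ± 0.03, Slc6a9 at -0.44 ± 0.07, Slc48a1 at -0.39 ± 0.05, Slc9a3r1 at -0.32 ± 0.07, Slc38a2 at -0.29 ± 0.03, Slc20a2 at -0.27 ± 0.05 and Slc35e4 at -0.23 ± 0.06. On total reads the value of Slc9a3r1 was -0.22 (adjusted p = 0.0804). The comparisons of P_ES10 and P_ES50 with P use the same P libraries as this one, so the values for these genes can only be set side by side. For Slc30a1 they were -0.53 ± 0.06 in P versus NC and 0.72 ± 0.06 in P_ES10 versus P. For Slc39a13 they were 0.74 ± 0.06 in P versus NC and -1.63 ± 0.06 in P_ES50 versus P.

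Of 19 tested genes that power, chaperone or regulate carriers, a list that includes the sodium pump, carrier kinases and stress factors, 11 fell and 6 rose in ES50 versus ES10. Over all genes tested, 41.3% fell and 33.0% rose there. The sodium pump subunits Atp1b1 and Atp1b3 changed by -1.45 ± 0.07 and -0.71 ± 0.05. The chaperone of lactate carriers, Bsg, fell by 0.84 ± 0.04, and Nfat5, the factor of the response to high salt, by 2.55 ± 0.08. Oxsr1, a kinase that switches chloride cotransporters, rose from 14.0 ± 0.769 to 61.0 ± 4.41 FPKM (2.04 ± 0.06), and Nedd4, a ubiquitin ligase that removes carriers from the membrane, rose by 0.93 ± 0.03. Both rises are relative to the median gene. Reads over the 3 libraries went from 4705 in ES10 to 1979 in ES50 for Oxsr1, and from 39167 to 7284 for Nedd4. In ES10 versus NC 6 of the 19 rose and 0 fell, where 6.36% of all genes tested rose and 2.21% fell. Akr1b1 stood at 0.63 ± 0.05, Nfat5 at 0.43 ± 0.08 and Atf4 at 0.32 ± 0.06. In P_ES10 versus P 8 rose and 1 fell, where 13.2% and 9.66% of all genes tested did. In P_ES50 versus P 7 rose and 6 fell, where 14.1% and 14.2% of all genes tested did. Trib3, a target of ATF4, stood at 1.04 ± 0.08 and Atf4 at 0.46 ± 0.06. The same genes stood at 0.24 ± 0.08 and 0.64 ± 0.06 in P_ES10 versus P. In P_ES50 versus P_ES10 Trib3 stood at 0.79 ± 0.08 and Atf4 at -0.18 ± 0.06. In ES50 versus ES10 they stood at -0.75 ± 0.08 and -0.93 ± 0.06. Their relation to the carriers was not tested. In P versus NC 3 rose and 6 fell, where 4.72% and 4.81% of all genes tested did. Atf4 was among those that fell, at -0.40 ± 0.06. Of the 5 genes set aside by name 4 were tested. These 4 fell in ES50 versus ES10, and 3 of them rose in P_ES50 versus P, where the cystine carrier Slc7a11 went from 1.58 ± 0.107 to 10.3 ± 0.0901 FPKM.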

How the data were processed

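RNA of 18 H9C2 libraries, 3 in each of 6 groups taken from the treatment labels, was measured as poly-A RNA-seq, per the labels' protocols. The authors deposited gene levels as FPKM, with build Rnor 6.0 named in the submitters' processing notes. For the aligner, counter, annotation release and strand setting the sources used here name none. In every library all values, multiplied by gene length, gave whole reads within 0.01, and these recovered reads give the depths. Intergroup tests used limma 3.58.1 (R 4.3.3) on log2(FPKM + 1), with a mean per group over all 18 libraries and a spread that follows the level. Genes with at least 1 FPKM in at least 3 libraries were tested, 11917 in all, with Benjamini-Hochberg adjustment within each comparison and a threshold of 0.05. The linear model was first run on simulated counts for ES10 versus NC, P_ES10 versus P, P_ES50 versus P and ES50 versus ES10. These counts had the same dispersion for every gene. No interaction was simulated, so the run cannot speak for the interactions. Single library values were compared with exact permutation tests. The alternatives changed the pseudocount, the filter, the scaling, the replicate block, the groups in the fit and the tool (limma voom on recovered reads), and left out each library. Promoter windows were RefSeq, GRCr8.

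The members, gene lists and tests were chosen with earlier results of these data known. Classes follow the family number. The genes named are the largest called changes in each direction (8 where libraries did not overlap, or 5 for comparisons between pulse doses and for interactions), the 10 highest in NC, the highest of each class, the 3 on either side of the level, and lists of carriers and partners. Others are examples chosen after their values were seen. Some genes were kept in the fits and counts and are not reported by name here.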

Additional observations from a re-analysis of the deposited data

Results flagged for a closer look

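By the interaction term of limma (adjusted p under 0.05) 4 carrier genes passed for a different effect of 10 pulses without and with PE, 1 positive and 3 negative, where 0.562% and 0.344% of all genes tested did. The term contains the NC values that chose the genes, so these values are a description. The difference, with PE minus without, was 0.44 for the zinc exporter gene Slc30a1, -0.55 for the mitochondrial sodium-calcium exchanger gene Slc8b1, -0.51 for the zinc carrier gene Slc39a13 and -0.34 for the potassium-chloride cotransporter gene Slc12a4, on the log2 scale. The call of Slc8b1 was lost with a pseudocount of 0.1 (adjusted p = 0.141), that of Slc30a1 without any 1 of 5 libraries and that of Slc12a4 without any 1 of 10 of the 12 libraries.

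For 50 pulses the largest differences of either sign between cells with and without PE were taken from the same kind of term, which again contains NC and is a description. They were 3.67 for Slc20a1, 3.38 for Slc1a4, 3.17 for Slc7a1, 3.14 for Slc8b1 and 3.08 for Slc23a2. In the other direction they were -0.96 for Slc39a13, -0.79 for Slc9a3r1, -0.73 for Slc24a5, -0.68 for Slc39a3 and -0.63 for Slc35a4. The share of mitochondrial reads differed in the same comparison, at 92.1% in ES50 and 48.6% in P_ES50, and its part in these values was not tested.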

How the results depend on the processing

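Scaling to total reads gave 19 called members in ES10 versus NC, 64 in P versus NC, 63 in P_ES10 versus P, 119 in P_ES50 versus P, 116 in P_ES50 versus P_ES10, and 8 and 117 for the interactions of PE with 10 and 50 pulses. Fitting the compared groups alone, the counts were 28 in ES10 versus NC, 58 in P versus NC, 59 in P_ES10 versus P, 39 in P_ES50 versus P_ES10 and 21 for PE with 10 pulses. Limma voom gave 31, 65, 63, 44 and 18 in the same order, and 72 in P_ES50 versus P. Without the 3 ES50 libraries the counts were 30, 62, 58 and 14 for ES10 versus NC, P versus NC, P_ES10 versus P and PE with 10 pulses. These compare with 12, 28, 36, 47, 25, 4 and 77 in the order of the first list.

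On total reads 25 values changed sign. In ES50 versus NC these were Slc24a5 at -2.52, Slc35a4 at -2.49, Slc35b1 at -3.09, Slc48a1 at -2.37, Slc9a3r1 at -2.48 and Slc9a3r2 at -1.95. In ES50 versus ES10 they were Slc24a5 at -2.23, Slc35a4 at -2.40, Slc41a1 at -2.26, Slc48a1 at -2.58, Slc9a3r1 at -2.69 and Slc9a3r2 at -1.49. In P_ES50 versus P they were Slc20a1 at -0.63, Slc20a2 at -0.65, Slc30a1 at -0.61, Slc30a4 at -0.47, Slc6a9 at -0.54 and Slc7a1 at -0.37, and in P_ES50 versus P_ES10 Slc1a4 at -0.35 and Slc20a1 at -0.11. For the interaction with 50 pulses they were Slc24a5 at 1.28, Slc35a4 at 1.80, Slc39a13 at 1.18, Slc39a3 at 1.62 and Slc9a3r1 at 1.71. By construction, this scale moves every nuclear gene with the mitochondrial share. The cause of the other moves was not tested.

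Leaving out 1 library at a time gave 8 to 9 called members in ES10 versus NC, 94 to 100 in ES50 versus NC, 20 to 23 in P versus NC, 27 to 31 in P_ES10 versus P, 38 to 43 in P_ES50 versus P, 94 to 100 in ES50 versus ES10 and 21 to 25 in P_ES50 versus P_ES10. The calls that a single library ended were 5 of 12, 7 of 98, 11 of 28, 10 of 36, 12 of 47, 11 of 100 and 4 of 25 in that order. For the interactions it gave 2 to 4 with 10 pulses and 71 to 83 with 50 pulses. Of 152 values for named genes, 146 kept direction and call with a pseudocount of 0.1, 148 without the filter, 149 on nuclear reads and 147 after quantile normalization. With the replicate number as a block all 152 did, and the counts were 13 in ES10 versus NC, 96 in ES50 versus NC, 28 in P versus NC, 36 in P_ES10 versus P, 46 in P_ES50 versus P, 100 in ES50 versus ES10, 25 in P_ES50 versus P_ES10 and 4 and 75 for the interactions. Same-numbered libraries correlated at -0.088 to 0.101 over genes. These are deviations from means of 3 libraries, so they cannot decide whether the numbers pair the samples. Every sample correlated best with its own number in ES10 versus NC and in P_ES50 versus P_ES10. Depth limits ES50 most, where 30 to 38 members had under 10 reads in a library.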

Other observations

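A carrier gene below the level in untreated cells, Slc51a, a subunit of the bile acid exporter, had 0.704 ± 0.160 FPKM in NC, 1.86 ± 0.204 in ES10, 0.424 ± 0.245 in P and 1.74 ± 0.0958 in P_ES10 (SD, n = 3). In P_ES50 it had 0.522 ± 0.0560 FPKM. In the 3 ES50 libraries it had 0 reads. It was chosen for mention after its values were seen.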
